A study of Mus musculus with 28 samples.

Results

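The difference of differences between genotypes was examined in mouse liver, that is, the ethanol difference of wild-type mice (ethanol minus control diet) minus the ethanol difference of mice deficient in the constitutive androstane receptor (CAR). A positive value means that the ethanol difference was more positive in wild-type mice, and a negative value that it was more positive in CAR-deficient mice. The 14 arrays compared, of 28 in the series, came from 3 CAR-deficient mice fed ethanol, 3 CAR-deficient mice fed the control diet, 4 wild-type mice fed ethanol and 4 wild-type mice fed the control diet, with 1 mouse per array. Of 45011 probe sets with values in both genotypes, 5735 (12.7%) had a standard deviation (SD) above 0.01 over the 12 CAR-deficient arrays and over the 16 wild-type arrays, and these are the members described here. They hold 3670 genes: 5095 probe sets name 1 gene, 197 name several and 443 name none. Outside them, 3565 probe sets passed the SD minimum in CAR-deficient arrays alone, 897 in wild-type arrays alone and 34814 in neither.

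All mice were of the C3H/HeN strain, were labelled female and 5 weeks old, and received Lieber's isocaloric liquid diet with or without ethanol. In the authors' diet formula, ethanol takes the place of some water and of most of the maltose and dextrin. Ethanol thus cannot be told apart from less carbohydrate. The authors give 5 weeks as the age before 1 week of acclimation, so the mice were older when the livers were taken. The diet was offered freely for 1 week and then as 12 g per day for 4 weeks. The authors obtained C3H/HeN mice from a supplier and a CAR-deficient strain on the same background from another laboratory. They report the CAR-deficient mice as a further run of the experiment, so genotype cannot be told apart from colony or run. The remaining arrays of the series came from both genotypes on ethanol plus ellagic acid (EA) or ethanol plus trans-resveratrol (RSV).

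CAR, encoded by Nr1i3, is a nuclear receptor of the hepatocyte that stays in the cytoplasm until drugs, bile acids or stress signals release it to the nucleus. There it pairs with the retinoid X receptor and raises cytochrome P450 enzymes, conjugating enzymes and transporters, with Cyp2b10 as its classical target in the mouse. Many of the P450 enzymes and organic anion transporters of mouse liver are also expressed unequally in males and females, under the control of pulsatile growth hormone.

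The authors summarised the arrays of the 2 genotypes separately by Distribution Free Weighting, which rescales each probe set, so levels were not compared between genotypes and the differences are deposited log2 units and not calibrated fold changes. The scales were unequal: the median SD of a member was 0.222 over CAR-deficient arrays and 0.166 over wild-type arrays, with a median ratio of 1.36. The residual SD within diets had a median of 0.198 in CAR-deficient mice and 0.115 in wild-type mice, and the highest value on an array was 27.2 in CAR-deficient mice and 14.7 in wild-type mice, although only 2 members exceeded 15. A difference between genotypes in these values cannot be told apart from the difference in scale where both differences have the same sign. The array of CAR-deficient ethanol replicate 1 stood apart, with a residual SD of 0.392 over the members, against 0.106 to 0.327 on the other 27 arrays.

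The labels were checked against the values. Hepatocyte markers (Alb, Ttr, Apoa1, Serpina1c and Tat) lay at the 97.1st percentile or above on every array. Cholangiocyte, lymphocyte, and neutrophil and monocyte markers gave 0 members. Membership rests on the SD and not on the level, so this does not show whether these cells were present. The values went against the label of female sex for Xist, below the median level on every array, and for 1 probe set of Eif2s3y. The other Y-linked probe sets gave no clear answer. The terms male-biased and female-biased below describe the genes and not the mice. Of the Y-linked genes, 1 of 2 probe sets of Eif2s3y lay between the 90.0th and 93.1st percentiles on CAR-deficient arrays and between the 91.9th and 92.2nd on wild-type arrays, and the other between the 3.79th and 5.22nd on all arrays. The 7 probe sets of Kdm5d and Uty lay between the 10.9th and 74.6th percentiles on CAR-deficient arrays and between the 12.2nd and 73.7th on wild-type arrays. The 3 probe sets of Xist, the RNA that silences an X chromosome in females, lay between the 3.87th and 39.6th percentiles on CAR-deficient arrays and between the 3.82nd and 34.4th on wild-type arrays. Nr1i3 itself (1425392_a_at) had levels of 8.56, 9.33 and 9.01 on CAR-deficient ethanol arrays and 8.79, 8.55 and 8.69 on CAR-deficient control arrays, and of 9.18, 9.68, 9.14 and 8.96 on wild-type ethanol arrays and 9.22, 9.30, 9.65 and 9.47 on wild-type control arrays. Which exons the deletion removed is not given in the sources used here, so this probe set may lie outside it and checks nothing.

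The interaction was tested by limma over all 28 arrays, with p-values adjusted by the Benjamini-Hochberg method over 45011 probe sets and a threshold of 0.05. It passed for 119 members (2.07%), against 2.22% of all probe sets, so the share among the members was near the background. Of the 119, 47 were positive (0.82% of the members) and 72 were negative (1.26%). Their differences of differences had a median size of 0.613 and a range of 0.192 to 5.27, and 29 had a size of at least 1. The 880 probe sets past the threshold outside the members had a median size of 0.00217 and are not described. An unadjusted p under the same threshold was found for 852 members.

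The 119 calls lay mostly on the side of the CAR-deficient mice. In 94 of them (79.0%) the ethanol difference was larger in size in CAR-deficient than in wild-type mice, against 59.6% of all members. Of the 47 positive calls, 45 had an ethanol difference below 0 in CAR-deficient mice and 26 in wild-type mice, and of the 72 negative calls, 66 had one above 0 in CAR-deficient mice and 24 in wild-type mice. The 2 genotypes had ethanol differences of opposite sign in 19 positive and 42 negative calls. The ethanol and control arrays did not overlap within CAR-deficient mice for 93 of the 119 and within wild-type mice for 57, against 27.6% and 26.6% of all members. The calls were chosen on these same differences, with a residual variance shared by the genotypes, although scale and spread were wider in CAR-deficient mice. These shares are thus partly set by the choice and are a description.

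**Figure D1:**
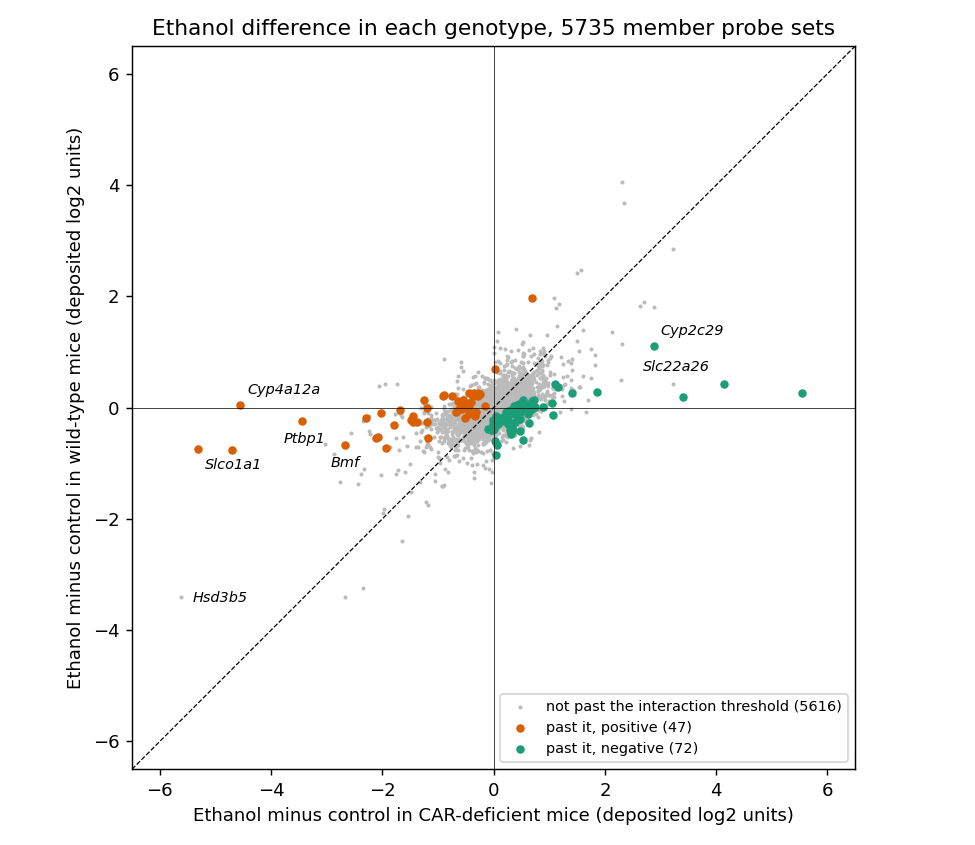
Ethanol minus control in CAR-deficient mice (horizontal axis) against the same in wild-type mice (vertical axis), in deposited log2 units, for the 5735 members, with the 47 positive and 72 negative interaction calls in colour and the line of equal differences dashed. The positive calls run along the horizontal axis to the left, out to Slco1a1 and Cyp4a12a, and the negative calls run along it to the right, out to Slc22a26 and, furthest, a probe set with no gene name.

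Genes more active in male liver gave the largest positive differences. Cyp4a12a, a P450 enzyme that hydroxylates fatty acids and is expressed chiefly in males, and Slco1a1, an organic anion uptake transporter of the sinusoidal membrane, fell in CAR-deficient mice fed ethanol. Cyp4a12a fell by 4.56 and Slco1a1 fell by 5.31 log2 units. Cyp4a12a had levels of 6.70, 7.39 and 6.33 on CAR-deficient ethanol arrays, against 11.33, 11.44 and 11.34 on CAR-deficient control arrays. In wild-type mice its levels were 11.32, 11.19, 11.49 and 11.29 on ethanol arrays and 11.19, 11.31, 11.25 and 11.38 on control arrays. The CAR-deficient groups were far apart and the wild-type groups overlapped, giving ethanol differences of -4.56 ± 0.69 (SE, adjusted p = 0.046) in CAR-deficient mice and 0.042 ± 0.14 (adjusted p = 0.896) in wild-type mice, and an interaction of 4.60 ± 0.61 (adjusted p = 0.000271). Slco1a1 had levels of 7.25, 7.06 and 6.76 on CAR-deficient ethanol arrays and 12.18, 12.43 and 12.38 on CAR-deficient control arrays. Its wild-type levels were 11.12, 10.78, 11.38 and 11.07 on ethanol arrays and 11.99, 11.86, 11.74 and 11.72 on control arrays. Slco1a1 was lower on all ethanol arrays than on all control arrays of the same genotype, with differences of -5.31 ± 0.68 (adjusted p = 0.0293) in CAR-deficient mice and -0.74 ± 0.16 (adjusted p = 0.0205) in wild-type mice, and the interaction was 4.57 ± 0.61 (adjusted p = 0.000271).

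The promoters of Slco1a1 and of Cyp2c29, a CAR target described below, are shown because these genes of drug transport and metabolism passed the interaction in opposite directions. Each runs from 250 bases before to 50 bases after the start of the gene in build GRCm38.p6. Capitals mark AGGTCA, the motif that nuclear receptors bind, on either strand (TGACCT is its reverse complement). Slco1a1 lies on chromosome 6 (minus strand, chr6:141946913-141947212) and Cyp2c29 on chromosome 19 (plus strand, chr19:39286835-39287134).
Slco1a1: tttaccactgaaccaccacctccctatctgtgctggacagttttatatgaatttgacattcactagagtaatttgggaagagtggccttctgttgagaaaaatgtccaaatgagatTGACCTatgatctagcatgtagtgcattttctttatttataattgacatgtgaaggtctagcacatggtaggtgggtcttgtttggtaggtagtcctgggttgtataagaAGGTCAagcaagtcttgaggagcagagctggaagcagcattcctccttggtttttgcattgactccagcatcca
Cyp2c29: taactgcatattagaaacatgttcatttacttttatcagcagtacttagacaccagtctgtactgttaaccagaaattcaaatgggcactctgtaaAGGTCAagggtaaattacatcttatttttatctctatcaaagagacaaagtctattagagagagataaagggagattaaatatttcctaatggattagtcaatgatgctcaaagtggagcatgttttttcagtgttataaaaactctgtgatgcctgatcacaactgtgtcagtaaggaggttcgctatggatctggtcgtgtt
Slco1a1 held 2 copies, the more distant at 134 bases before the start, and Cyp2c29 held 1, at 154 bases before it. This motif was present in 16.3% of 32851 RefSeq promoters of the same 300 bases and in 8 of the 30 promoters (26.7%) that the set holds for 25 of the named genes past the interaction. The antioxidant response core TGACNNNGC, whose first letters it shares on the reverse strand, was present in 12.4% of all promoters and in 2 of those 30 (6.67%). A match is a description of the letters and not of a bound site.

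Of 18 listed genes known as male-biased, 14 had a probe set of their own and all 14 were members. Of these, 6 passed the interaction in the positive direction and 0 in the negative, and 13 had a positive sign. The list had been assembled with earlier results of these data known. The median interaction of its genes was 1.26, against -0.037 over 3670 member genes, of which 31 passed in the positive and 49 in the negative direction. The ethanol difference passed the test of each genotype for 7 genes of the list in CAR-deficient mice and 7 in wild-type mice, all lower, with medians over the list of -1.84 and -0.63. The 6 genes were Cyp4a12a, Slco1a1, Nudt7, Cyp2d9, C6 and C8b. Cyp2d9, a steroid hydroxylase of male liver, fell by 1.45 in CAR-deficient mice (adjusted p = 0.0429), with levels of 11.81, 12.08 and 11.71 on ethanol arrays and 13.22, 13.42 and 13.30 on control arrays. Its wild-type levels were 12.74, 12.88, 12.80 and 12.71 on ethanol arrays and 12.94, 12.97, 12.90 and 12.92 on control arrays. The wild-type groups did not overlap either, but the difference of -0.15 ± 0.076 did not pass (adjusted p = 0.276), and the interaction was 1.30 ± 0.20 (adjusted p = 0.00124). Nudt7, a peroxisomal enzyme that hydrolyses coenzyme A, had an interaction of 2.12 ± 0.56 (adjusted p = 0.049), close to the threshold, and its other probe sets gave 1.55 (1427513_at, adjusted p = 0.0281) and 2.10 (1430896_s_at, adjusted p = 0.0501). Its differences were -2.30 ± 0.65 in CAR-deficient mice (adjusted p = 0.202) and -0.18 ± 0.074 in wild-type mice (adjusted p = 0.182).

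Hsd3b5, a male-specific enzyme of steroid metabolism, showed the largest fall with ethanol in both genotypes among the genes called in both. Its levels were 6.77, 6.51 and 6.54 on CAR-deficient ethanol arrays and 12.14, 12.40 and 12.12 on CAR-deficient control arrays. In wild-type mice the levels were 7.83, 8.55, 10.13 and 9.31 on ethanol arrays and 12.48, 12.41, 12.23 and 12.29 on control arrays. The groups were apart in both genotypes, and the wild-type ethanol arrays spread over more than 2 units. The differences were -5.61 ± 0.12 in CAR-deficient mice (adjusted p = 9.57e-07) and -3.40 ± 0.62 in wild-type mice (adjusted p = 0.0103), and the interaction of 2.21 ± 0.75 did not pass (adjusted p = 0.136).

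**Figure D2:**
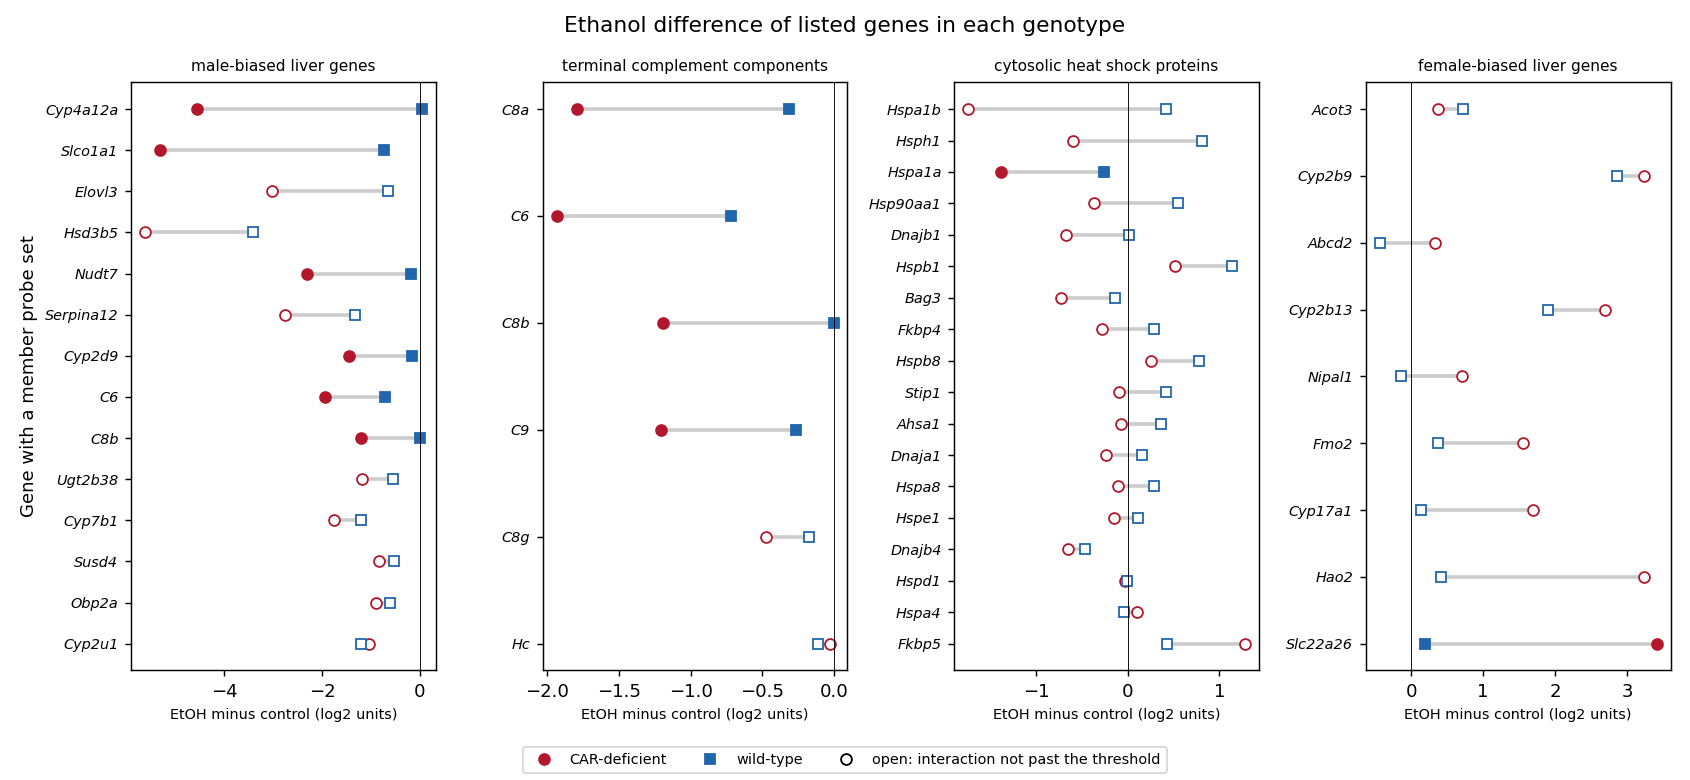
Ethanol minus control in deposited log2 units for each gene with a member probe set in 4 lists, with CAR-deficient mice as circles and wild-type mice as squares, filled where the interaction passed the threshold. In the male-biased list 13 of 14 genes lie further left in CAR-deficient than in wild-type mice, and in the female-biased list 8 of 9 lie further right. The terminal complement list was put together after its values were seen, and C6 and C8b are also in the male-biased list.

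Components of the terminal complement pathway, which assemble into the pore that lyses cells, had more negative ethanol differences in CAR-deficient mice for 5 of 6 members, and Hc ran the other way (-0.081). The ethanol difference passed the test for 2 of 6 in CAR-deficient mice and 3 of 6 in wild-type mice, all lower, against 0.344% and 5.55% of all probe sets in either direction. Of 3670 member genes, which also passed the SD minimum, 21 passed as lower in CAR-deficient mice and 394 in wild-type mice. The liver secretes the complement components, C6 and C8b also belong to the male-biased list, and the complement list was put together after their values were seen. Of 7 genes, from Hc, the gene of the fifth component, to C9, 6 had a probe set that names them and all 6 were members. C6, C8a, C8b and C9 passed the interaction in the positive direction and Hc and C8g did not, with a list median of 1.06. Over all members 0.82% passed in that direction, but the list was made with these values in view, so its count is only a description. C8a, a chain of the eighth component, had levels of 10.95, 11.16 and 10.20 on CAR-deficient ethanol arrays and 12.59, 12.55 and 12.53 on CAR-deficient control arrays, and of 11.86, 11.87, 12.09 and 11.89 on wild-type ethanol arrays and 12.30, 12.19, 12.19 and 12.29 on wild-type control arrays. Ethanol and control arrays were apart in both genotypes, with differences of -1.79 ± 0.22 in CAR-deficient mice (adjusted p = 0.029) and -0.31 ± 0.068 in wild-type mice (adjusted p = 0.0208), with an interaction of 1.48 ± 0.21 (adjusted p = 0.000474). C6, which binds to the early complex of the pathway, had levels of 7.67, 7.35 and 7.44 on CAR-deficient ethanol arrays and 9.76, 9.28 and 9.22 on CAR-deficient control arrays, and of 8.53, 8.66, 8.86 and 8.61 on wild-type ethanol arrays and 9.67, 9.35, 9.04 and 9.48 on wild-type control arrays. It also fell in both genotypes, with differences of -1.93 ± 0.20 in CAR-deficient mice (adjusted p = 0.0233) and -0.72 ± 0.15 in wild-type mice (adjusted p = 0.0204), and the interaction was 1.22 ± 0.25 (adjusted p = 0.0125). C8b, the second chain of the eighth component, had levels of 10.29, 9.66 and 9.49 on CAR-deficient ethanol arrays and 11.04, 11.02 and 10.95 on CAR-deficient control arrays, and of 10.46, 10.48, 10.68 and 10.73 on wild-type ethanol arrays and 10.66, 10.59, 10.49 and 10.63 on wild-type control arrays. Its wild-type groups overlapped around the same mean, while the CAR-deficient groups were apart, with a difference of -1.19 ± 0.26, short of the threshold (adjusted p = 0.125), and the interaction was 1.19 ± 0.24 (adjusted p = 0.00903). C9, the unit that polymerises to form the pore, gave 0.94 ± 0.23 (adjusted p = 0.0378).

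The promoters of C6 and C8b are shown for comparison with that of Slco1a1, since all 3 genes passed the interaction in the same direction and hold the motif. The promoters of C8a, C9, Cyp2d9 and Nudt7, which passed in that direction too, hold 0 copies. C6 lies on chromosome 15 (plus strand, chr15:4726960-4727259) and C8b on chromosome 4 (plus strand, chr4:104766067-104766366), each with 1 AGGTCA motif in capitals, at 40 and 20 bases before the start.
C6: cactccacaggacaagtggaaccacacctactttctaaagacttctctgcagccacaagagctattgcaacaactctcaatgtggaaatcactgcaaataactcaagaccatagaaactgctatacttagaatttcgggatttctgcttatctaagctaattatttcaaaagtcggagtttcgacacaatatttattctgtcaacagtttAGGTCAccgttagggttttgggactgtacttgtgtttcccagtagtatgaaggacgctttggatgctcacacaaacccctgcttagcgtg
C8b: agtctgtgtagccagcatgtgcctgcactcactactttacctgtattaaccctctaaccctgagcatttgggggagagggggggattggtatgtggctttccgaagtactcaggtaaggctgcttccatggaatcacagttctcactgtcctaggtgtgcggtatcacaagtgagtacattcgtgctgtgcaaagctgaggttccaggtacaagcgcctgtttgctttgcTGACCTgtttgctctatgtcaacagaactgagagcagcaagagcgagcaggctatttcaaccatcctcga

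The other genes with large positive differences are described singly. Bmf, a BH3-only protein that promotes apoptosis, had levels of 6.14, 7.21 and 6.40 on CAR-deficient ethanol arrays and 9.02, 9.31 and 9.43 on CAR-deficient control arrays, and of 7.06, 7.22, 7.43 and 7.39 on wild-type ethanol arrays and 7.47, 7.89, 7.97 and 8.44 on wild-type control arrays. It fell in CAR-deficient mice, with a difference of -2.67 ± 0.29 (adjusted p = 0.0233), while the wild-type difference of -0.67 ± 0.21 did not pass (adjusted p = 0.0813), and the interaction was 1.999 ± 0.35 (adjusted p = 0.00364). Ptbp1, a repressor of splicing, gave 3.20 ± 0.41 (adjusted p = 0.000213) with 1458284_at, from a difference of -3.45 in CAR-deficient mice and -0.25 in wild-type mice. Its other member probe set, 1424874_a_at, gave -0.24 (adjusted p = 0.371), so the result belongs to 1 probe set and not to the gene. Keg1 gave 1.40 ± 0.29 (adjusted p = 0.0146), and the laminin chain gene Lama3 gave 1.28 ± 0.22 (adjusted p = 0.0033). Alas2, which starts heme synthesis in erythroid cells, gave 1.55 ± 0.37 (adjusted p = 0.0293) and was the only member among the erythroid markers. In whole liver, fewer cells of a type and less RNA per cell cannot be told apart. Hspa1a, an inducible heat shock protein, had levels of 6.77, 6.48 and 6.27 on CAR-deficient ethanol arrays and 8.08, 8.09 and 7.49 on CAR-deficient control arrays, and of 6.80, 7.01, 6.70 and 6.76 on wild-type ethanol arrays and 6.90, 6.95, 7.22 and 7.26 on wild-type control arrays. Its control arrays were the high group in CAR-deficient mice, the wild-type groups overlapped, and the interaction was 1.12 ± 0.20 (adjusted p = 0.00364). It was 1 call among 18 cytosolic heat shock genes with a member, 16 of which had a positive sign, with median ethanol differences of -0.19 in CAR-deficient mice and 0.29 in wild-type mice.

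The most negative difference of a named gene was that of Slc22a26, an organic anion transporter-like gene of female-biased expression, which rose with ethanol in CAR-deficient mice. It had levels of 10.60, 9.78 and 10.85 on CAR-deficient ethanol arrays, against 5.98, 6.25 and 6.58 on CAR-deficient control arrays. The wild-type levels were 6.96, 6.35, 6.63 and 6.41 on ethanol arrays and 6.18, 6.06, 6.28 and 6.11 on control arrays. The groups were apart in both genotypes, by 4.14 ± 0.58 in CAR-deficient mice (adjusted p = 0.0383) and by 0.43 ± 0.20 in wild-type mice (adjusted p = 0.236), and the interaction was -3.71 ± 0.55 (adjusted p = 0.000766). The control levels of Slc22a26 lay below the array medians of 6.69 in wild-type and 6.88 in CAR-deficient mice. Its mean on wild-type ethanol arrays, 6.59, was also below the median, so the wild-type separation is between low signals. A second probe set, 1425751_at, gave -3.21 (adjusted p = 0.000507). Of 20 listed female-biased genes, 15 had a probe set of their own and 9 were members, 8 of them had a negative sign, 1 passed in the negative direction and 0 in the positive, and the median interaction was -0.846. The median ethanol difference over the 9 was 1.70 in CAR-deficient mice and 0.372 in wild-type mice. Hao2, a peroxisomal oxidase of the list, gave -2.81 ± 0.81 and did not pass (adjusted p = 0.0736), and it was picked out after its values were seen.

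Cyp2c29, a P450 enzyme that oxidises arachidonic acid and steroids and a known CAR target, rose with ethanol in both genotypes and more in CAR-deficient mice. Its levels were 12.87, 12.78 and 13.02 on CAR-deficient ethanol arrays and 10.24, 9.68 and 10.14 on CAR-deficient control arrays. In wild-type mice they were 13.60, 13.48, 13.61 and 13.66 on ethanol arrays and 12.32, 12.49, 12.49 and 12.61 on control arrays. No group overlapped its control, and the differences were 2.88 ± 0.19 in CAR-deficient mice (adjusted p = 0.00283) and 1.11 ± 0.069 in wild-type mice (adjusted p = 1.71e-05). The interaction of -1.77 ± 0.18 had the smallest adjusted p among the named genes (2.67e-05). When each probe set was divided by its residual SD within the genotype, the call was lost, as it was for Slco1a1 and C8a.

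The list of CAR targets in xenobiotic metabolism held 44 genes, of which 35 had a probe set of their own and 32 were members. None passed the interaction in the positive direction at the adjusted threshold, and 2 passed in the negative direction, Cyp2c29 and Slco1a4 (6.25%). In the fit of the 14 ethanol and control arrays alone, these 2 remained and 4 others passed in the positive direction, Cyp2c54 (adjusted p = 0.0244), Gsta2 (0.0270), Aldh1a1 (0.0463) and Cyp2c50 (0.0470). Against control, 4 genes of the list passed as higher in CAR-deficient mice and 20 in wild-type mice, and 0 passed as lower in either. These counts stand beside backgrounds of 0.344% of all probe sets called in CAR-deficient mice and 5.55% in wild-type mice, in either direction. Of 3670 member genes, which also passed the SD minimum, 21 passed as higher in CAR-deficient mice and 251 in wild-type mice. The median ethanol differences over the 32 were 0.744 in CAR-deficient mice and 0.597 in wild-type mice, and 14 of the 32 interactions had a positive sign. The part of the unequal residual spread and array numbers in these counts was not tested. The lists leave out probe sets that name several genes. Of these, 1422230_s_at, of the P450 genes Cyp2a5 and Cyp2a4, passed the interaction in the positive direction at 1.27 ± 0.32 (adjusted p = 0.0378). Its ethanol differences were 0.69 ± 0.18 in CAR-deficient mice (adjusted p = 0.173) and 1.97 ± 0.23 in wild-type mice (adjusted p = 0.00107).

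Cyp2b10 had 3 member probe sets, none past the interaction. With 1451787_at its levels were 9.07, 7.18 and 7.61 on CAR-deficient ethanol arrays and 6.95, 6.82 and 6.83 on CAR-deficient control arrays, and 9.09, 8.05, 8.06 and 9.54 on wild-type ethanol arrays and 6.82, 6.69, 6.69 and 6.65 on wild-type control arrays. All ethanol arrays were above all control arrays in both genotypes, by 1.09 ± 0.40 (adjusted p = 0.322) in CAR-deficient mice and by 1.97 ± 0.34 (adjusted p = 0.00717) in wild-type mice. The interaction was 0.88 ± 0.53 (adjusted p = 0.431), and 1.34 and 1.74 with the other 2 probe sets (adjusted p = 0.371 and 0.239). The highest of the CAR-deficient ethanol values was that of replicate 1, the array that stood apart, and without it the interaction of 1451787_at was 1.44 (adjusted p = 0.0959). Gsta2, a glutathione transferase, differed by 1.50 ± 0.34 in CAR-deficient mice (adjusted p = 0.131) and 2.42 ± 0.11 in wild-type mice (adjusted p = 1.59e-06), with an interaction of 0.92 ± 0.32 (adjusted p = 0.144). Cyp2c54 gave the largest positive value of the list, 1.77 ± 0.56 (adjusted p = 0.107), from -0.89 ± 0.63 in CAR-deficient mice and 0.88 ± 0.15 in wild-type mice. Cyp2c50, of the same subfamily, gave 1.21 ± 0.47 (adjusted p = 0.198). Cyp2c37 and Cyp2c39 ran the other way, at -0.51 ± 0.21 and -0.70 ± 0.29 (adjusted p = 0.237 and 0.235). Of the 7 Cyp2c genes among the members of the list, 4 had a negative interaction (Cyp2c29, Cyp2c37, Cyp2c38 and Cyp2c39) and 3 a positive one (Cyp2c50, Cyp2c54 and Cyp2c55). Cyp2b9 and Cyp2b13, the other Cyp2b genes, differed by 3.23 ± 0.62 and 2.69 ± 0.57 in CAR-deficient mice and by 2.85 ± 0.57 and 1.90 ± 0.68 in wild-type mice.

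Slco1a4, a second organic anion uptake transporter and a CAR target, moved in the direction opposite to Slco1a1. Its levels were 11.28, 11.37 and 11.42 on CAR-deficient ethanol arrays and 9.84, 9.85 and 10.16 on CAR-deficient control arrays, and 9.49, 9.47, 9.09 and 9.22 on wild-type ethanol arrays and 8.93, 9.13, 9.18 and 8.95 on wild-type control arrays. The CAR-deficient groups were apart by 1.40 ± 0.22 (adjusted p = 0.0519) and the wild-type groups overlapped, with a difference of 0.27 ± 0.19 (adjusted p = 0.447). The interaction was -1.14 ± 0.29 (adjusted p = 0.0444).

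Among the named genes, Mmp14, Inhba and Cirbp had negative calls in which the ethanol difference passed the test of wild-type mice and not that of CAR-deficient mice. Mmp14, a membrane-bound metalloproteinase that cleaves collagen, had levels of 8.93, 8.77 and 8.87 on CAR-deficient ethanol arrays and 8.37, 8.41 and 8.35 on CAR-deficient control arrays, and of 8.07, 8.17, 7.81 and 8.06 on wild-type ethanol arrays and 8.53, 8.44, 8.44 and 8.38 on wild-type control arrays. Ethanol arrays were the high group in CAR-deficient mice, with a difference of 0.48 ± 0.16 (adjusted p = 0.27), and the low group in wild-type mice, with one of -0.42 ± 0.087 (adjusted p = 0.0183). The interaction was -0.90 ± 0.17 (adjusted p = 0.00629), and its second probe set, 1440920_at, gave -0.50 (adjusted p = 0.00941). Inhba, the activin A subunit, had levels of 8.87, 8.38 and 8.58 on CAR-deficient ethanol arrays and 8.52, 8.60 and 8.59 on CAR-deficient control arrays, and of 8.08, 7.84, 8.29 and 7.67 on wild-type ethanol arrays and 9.16, 8.88, 8.54 and 8.70 on wild-type control arrays. It overlapped between diets in CAR-deficient mice and fell by 0.85 in wild-type mice (adjusted p = 0.0136), with an interaction of -0.89 ± 0.23 (adjusted p = 0.0475). Cirbp, an RNA-binding protein induced by mild cold, had levels of 8.83, 8.42 and 9.03 on CAR-deficient ethanol arrays and 8.46, 8.14 and 8.07 on CAR-deficient control arrays, and of 7.43, 7.31, 7.38 and 7.35 on wild-type ethanol arrays and 7.95, 8.11, 7.90 and 7.85 on wild-type control arrays. It fell by 0.58 in wild-type mice (adjusted p = 0.00434), overlapped in CAR-deficient mice, and gave an interaction of -1.12 ± 0.22 (adjusted p = 0.00989).

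Srsf5, an SR protein that binds exons and promotes their splicing, rose in CAR-deficient mice. Its levels were 12.03, 11.88 and 11.93 on CAR-deficient ethanol arrays and 11.22, 11.43 and 11.31 on CAR-deficient control arrays, and 10.11, 10.60, 10.62 and 10.60 on wild-type ethanol arrays and 10.85, 10.74, 10.76 and 10.70 on wild-type control arrays. The groups were apart in opposite directions, with differences of 0.63 ± 0.078 in CAR-deficient mice (adjusted p = 0.029) and -0.28 ± 0.11 in wild-type mice (adjusted p = 0.159), and the interaction was -0.91 ± 0.15 (adjusted p = 0.00172). Among 11 SR splicing factor genes, a list put together after these values were seen, 7 were members, all 7 had a negative sign (that of Srsf3 was nearly 0), 1 passed and the median was -0.192. Nt5e, which makes adenosine at the cell surface, rose by 1.16 in CAR-deficient mice (adjusted p = 0.0434) and differed by 0.36 ± 0.12 in wild-type mice (adjusted p = 0.0907), with an interaction of -0.79 ± 0.20 (adjusted p = 0.0425). The zinc finger genes Zc3h6 and Zfp292 gave -0.97 and -0.88 (adjusted p = 0.0117 and 0.0351), Prelid2 gave -1.21 (adjusted p = 0.0311), and Dcn, the proteoglycan decorin of stellate cells, gave -0.40 (adjusted p = 0.0435), 1 of 6 members among the stellate cell markers. Mcl1, which blocks apoptosis, gave -1.58 (adjusted p = 0.00364) with 1437527_x_at, while its other 3 member probe sets gave values from -0.09 to 0.43 with adjusted p of at least 0.111, so this value belongs to 1 probe set.

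**Figure D3:**
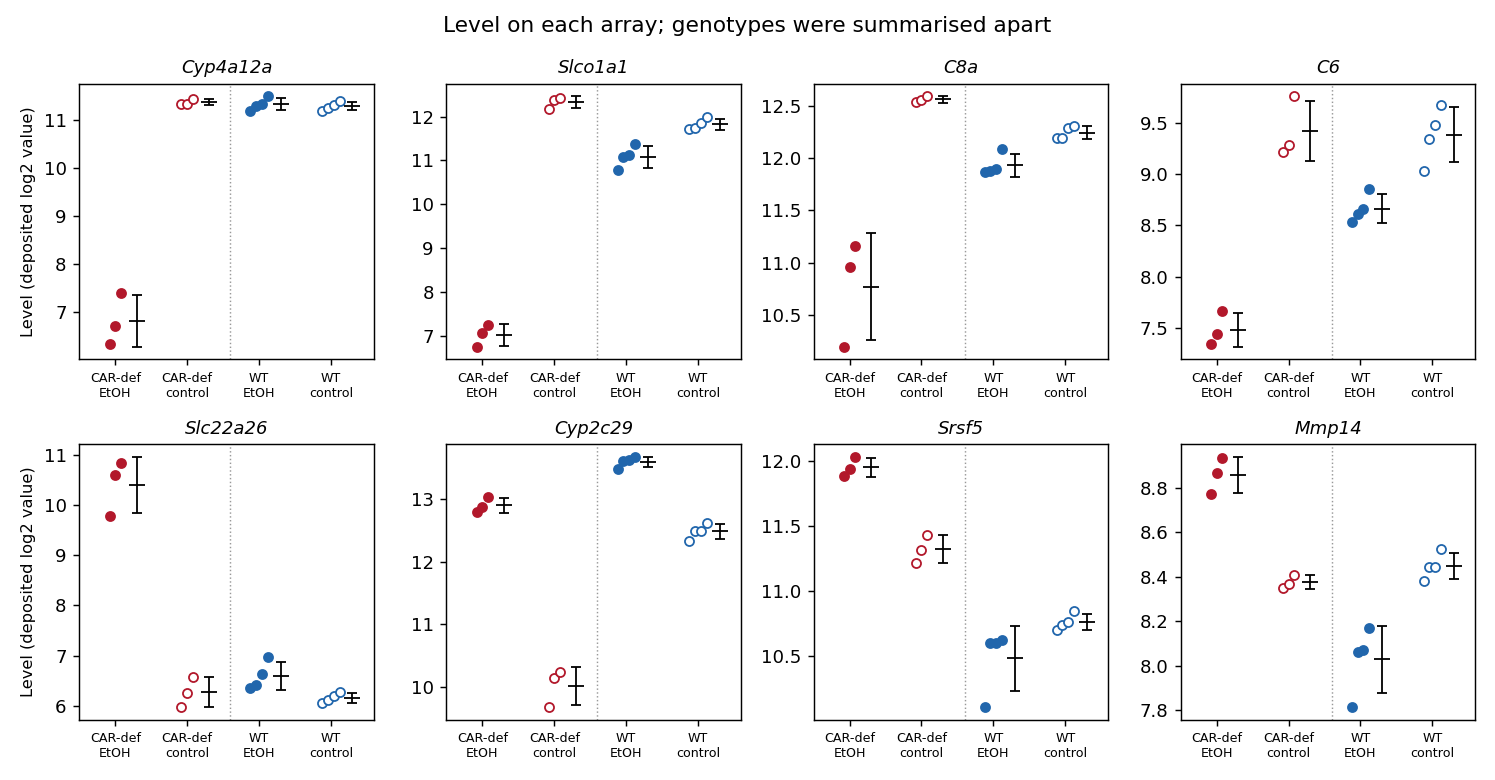
Deposited log2 level on each array (vertical axis) for 8 named genes, with CAR-deficient mice in red and wild-type mice in blue, ethanol as filled and control as open points, and the mean ± SD of each group as a bar beside its points (n = 3 or 4). The upper row (Cyp4a12a, Slco1a1, C8a and C6) has the CAR-deficient ethanol arrays far below their controls, and the lower row (Slc22a26, Cyp2c29, Srsf5 and Mmp14) has them above. The scales of the 2 genotypes differ.

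The largest difference of all members belonged to probe set 1449525_at, to which the annotation gives no gene. Its levels were 13.24, 12.04 and 11.81 on CAR-deficient ethanol arrays and 8.15, 5.93 and 6.40 on CAR-deficient control arrays, and 6.59, 6.55, 6.44 and 6.47 on wild-type ethanol arrays and 6.31, 6.20, 6.24 and 6.24 on wild-type control arrays. The groups were apart in both genotypes, by 5.53 ± 0.65 in CAR-deficient mice (adjusted p = 0.0255) and 0.26 ± 0.31 in wild-type mice (adjusted p = 0.669), and the interaction was -5.27 ± 0.66 (adjusted p = 0.000168). All its wild-type levels lay below the wild-type array median of 6.69, so the wild-type separation is between low signals. The interaction remained past the threshold in every alternative run. The probe set was named after its values were seen.

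**Figure D4:**
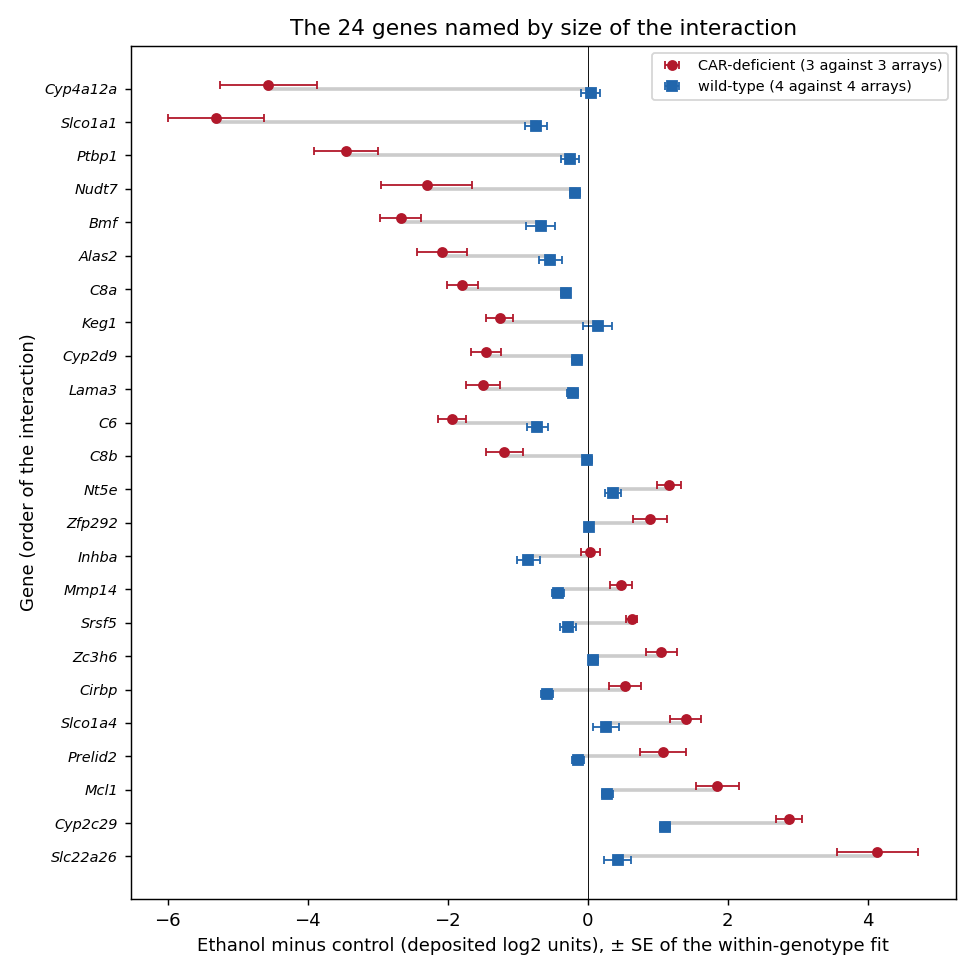
Ethanol minus control in deposited log2 units (horizontal axis), ± SE of the fit within the genotype, for the 12 genes with the largest positive and the 12 with the most negative interaction, ordered by the interaction. CAR-deficient mice (red) lie further from 0 than wild-type mice (blue) for all but Inhba and Cirbp.

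Most of the ethanol response was of the same sign in the 2 genotypes. Of the 5735 members, 68 passed the test of ethanol against control in CAR-deficient mice (32 higher and 36 lower) and 1003 in wild-type mice (378 higher and 625 lower). The count in CAR-deficient mice was 6 without control replicate 2 or 3, 11 without ethanol replicate 3, 13 without control replicate 1, 24 without ethanol replicate 1 and 46 without ethanol replicate 2. That in wild-type mice was 607 without control replicate 2 and 619 without control replicate 3. With same-numbered arrays of a genotype taken as a block, the counts were 8 in CAR-deficient mice and 699 in wild-type mice. The 37 members called in both all moved in the same direction, and they made up 54.4% of the CAR-deficient calls and 3.69% of the wild-type calls. Of the 1003 wild-type calls, 878 (87.5%) had the same sign in CAR-deficient mice, against 68.5% of all members. Across the 5735 members the ethanol differences of the 2 genotypes, which share no array, had a Pearson's r of 0.584 and a Spearman's rho of 0.536. Probe sets are not independent, and this is a description.

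Of the 119 interaction calls, 30 were also called in CAR-deficient mice, 42 in wild-type mice and 9 in both, and 56 in neither. The genes called in both genotypes and also past the interaction were Slco1a1, C8a, C6 and Cyp2c29, described above, with C1ra (0.20, adjusted p = 0.0459), Lst1 (0.33, adjusted p = 0.0484) and Rasgrp2 (-0.67, adjusted p = 0.0394). C1ra encodes a protease that starts the classical complement cascade. In these 7 genes the ethanol difference was further from 0 in CAR-deficient mice. It had the same sign in both genotypes, so this cannot be told apart from the unequal scale. With each probe set divided by its residual SD within the genotype, the call remained for C6. It was lost for Slco1a1, C8a, Cyp2c29, C1ra, Lst1 and Rasgrp2. Genes called in both without passing the interaction included Slc2a1, the glucose transporter GLUT1, which differed by 0.92 ± 0.13 in CAR-deficient mice and 0.93 ± 0.15 in wild-type mice. Nox4, an oxidase that makes hydrogen peroxide, differed by -1.39 ± 0.16 in CAR-deficient mice and -0.70 ± 0.11 in wild-type mice (interaction 0.69 ± 0.19, adjusted p = 0.0671), while its second probe set, 1419161_a_at, passed the interaction at 0.63 (adjusted p = 0.0365). The P450 gene Cyp2u1 differed by -1.05 ± 0.16 in CAR-deficient mice and -1.20 ± 0.14 in wild-type mice, and the chemokine gene Ccl9 by 0.94 ± 0.11 in CAR-deficient mice and 0.54 ± 0.079 in wild-type mice. Cyp3a25 rose by 0.34 ± 0.043 in CAR-deficient mice and 0.50 ± 0.052 in wild-type mice. The remaining genes of this kind, Ccar1, Ddx46, Dnaic1, Fgd6, Ildr2, Jmjd1c, Sp1, Tacc2 and Ulk2, had interactions between -0.37 and 0.48 with adjusted p of at least 0.13.

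With a polyphenol added to the ethanol diet, the same difference was taken between ethanol plus EA or RSV and the same control arrays, so the 3 interactions share controls and are given side by side. For Cyp4a12a the interaction was 4.60 with ethanol, 1.88 with EA added (adjusted p = 0.139) and 2.83 with RSV added (adjusted p = 0.0135). For Slco1a1 it was 4.57, 2.35 (adjusted p = 0.0506) and 2.91 (adjusted p = 0.0109). For Slc22a26 it was -3.71, -1.36 (adjusted p = 0.259) and -2.77 (adjusted p = 0.00741). All of these values with a polyphenol were nearer to 0 than those with ethanol alone, a difference that was not tested. These genes were named for their extreme ethanol interactions, and that choice by itself favours values nearer to 0 on other arrays. Other calls were as far from 0 or further: Mmp14 gave -0.94 with RSV against -0.90 with ethanol alone, Inhba gave -0.95 with RSV against -0.89, and Dcn gave -0.50 with RSV against -0.40. Nt5e gave -0.86 with EA and -0.80 with RSV against -0.79. For Cyp2c29 they were -1.77, -0.78 (adjusted p = 0.0292) and -1.57 (adjusted p = 7.92e-05). Ptbp1 gave 0.20 with EA and 1.34 with RSV, and neither passed (adjusted p = 0.893 and 0.086). Hspa1a passed with both, at 0.79 and 0.84 (adjusted p = 0.04 and 0.0232).

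The number of calls depended on how the spread was estimated. Because the residual spread of the genotypes is unequal, the variance was also estimated apart in each, and 45 members passed, all 45 among the 119. The 14 arrays alone gave 92, with 60 shared. With same-numbered arrays of a genotype taken as a block, 64 passed, with 54 shared. The share of positive calls, 39.5%, was 54.3% over the 14 arrays. All 119 kept their sign in every alternative that held them. Leaving out CAR-deficient ethanol replicate 2 gave 242 calls, CAR-deficient control replicate 1 gave 74, CAR-deficient control replicate 2 gave 66, and wild-type control replicate 1 gave 78. Without CAR-deficient ethanol replicate 1, the array that stood apart, 160 members passed, 40 of them positive and 73 among the 119.

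Of the 30 named genes past the interaction, 10 remained past it in every alternative that held them: Cyp4a12a, Ptbp1, Bmf, Keg1, Cyp2d9, C6, Hspa1a, Slc22a26, Srsf5 and Mmp14. With the variance estimated apart, Slco1a1, C8a and Cyp2c29 also remained. The call of 12 named genes was lost without 1 or more of the 14 arrays, with the sign kept each time. The call of Nudt7 remained in 1 of the 14 fits, the one without CAR-deficient ethanol replicate 2, and those of Slco1a4 and Rasgrp2 in 2 each. Zfp292 gave -0.56 without CAR-deficient ethanol replicate 1. The highest adjusted p without 1 array came without CAR-deficient ethanol replicate 1 for Nudt7 (0.103, difference 1.65) and Inhba (0.0981, -0.76). It came without CAR-deficient control replicate 1 for C1ra (0.115, 0.18), C9 (0.0759, 0.92) and Dcn (0.118, -0.32), and without CAR-deficient control replicate 3 for Alas2 (0.0673, 1.45). It came without CAR-deficient control replicate 2 for Prelid2 (0.0876, -1.11), Slco1a4 (0.103, -1.09), Zfp292 (0.0851, -0.84), Nt5e (0.113, -0.72), Lst1 (0.108, 0.32) and Rasgrp2 (0.108, -0.60).

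**Figure D5:**
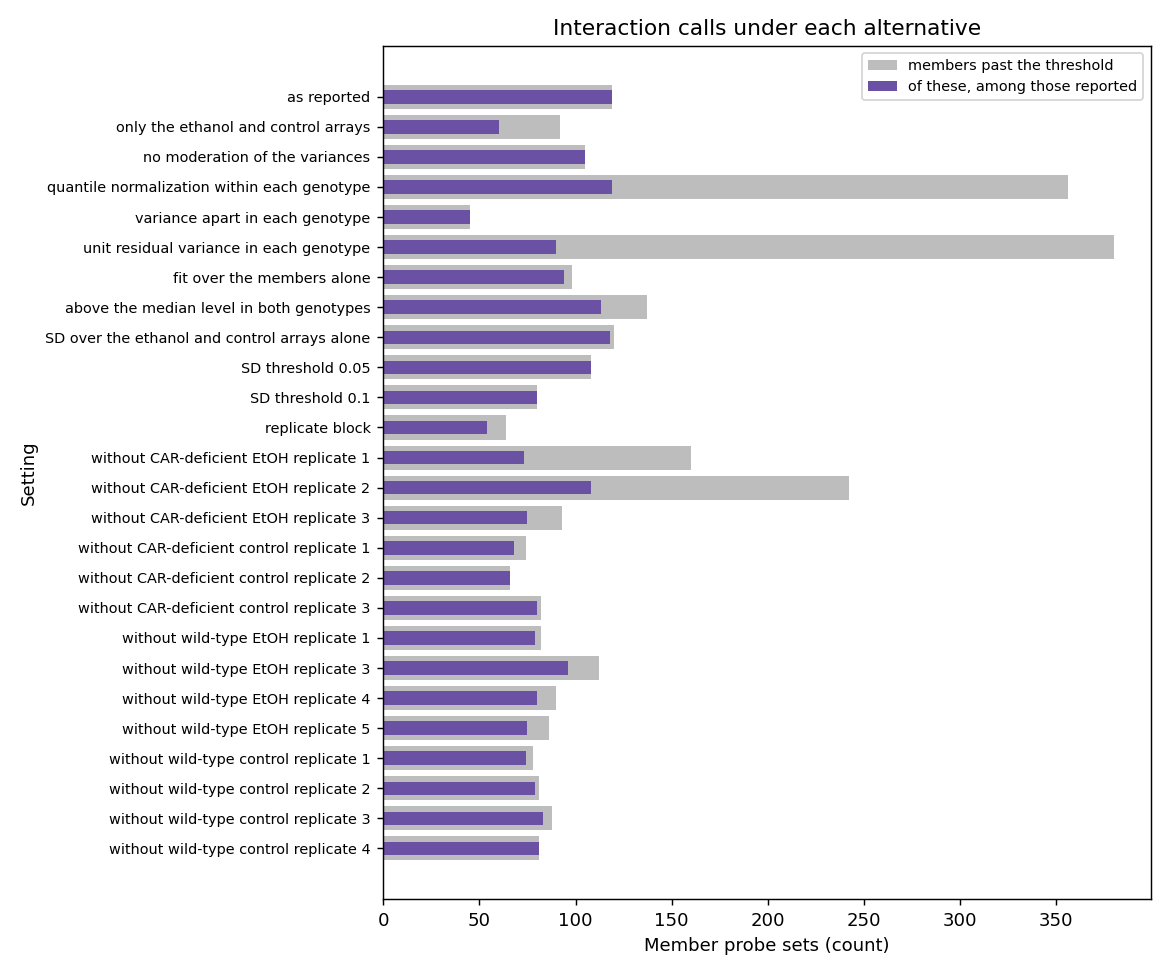
Number of members past the interaction threshold (horizontal axis) as reported and under each alternative setting (grey), with the part of them that is among the 119 reported (purple). The counts run between 45 with the variance apart in each genotype and 380 with unit residual variance, and the left-out arrays give 66 to 242.

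At the SD minimum that chose the members, the probe set just inside it had a smaller SD of 0.0101 and an interaction of -0.076, and the one just outside it had 0.00995 and -0.057.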

How the data were processed

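Liver RNA of 28 mice was hybridised to 1 Affymetrix mouse genome expression array each. The authors deposited log2 values summarised by Distribution Free Weighting, separately for 16 wild-type and 12 CAR-deficient arrays, so absolute fold changes and levels between genotypes are not given by these values. Control probe sets (64) and 26 probe sets blank in the CAR-deficient table were left out, leaving 45011. Of the annotated probe sets, 34925 name 1 gene, 932 several and 9154 none, and a gene was named only from a probe set that names 1 gene.

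The difference of differences was tested with limma 3.58.1 in R 4.3.3, with a mean for each of 8 groups of diet and genotype and moderated variances, after a check on simulated data. Benjamini-Hochberg adjustment ran over 45011 probe sets with a threshold of 0.05. The ethanol difference of each genotype was tested in a fit of that genotype alone. Each array is a separate mouse, and no depth applies to arrays: their number limits the precision. Named genes were the 12 largest positive and 12 most negative calls, genes called in both genotypes, Nr1i3, the CAR target list, and genes of the lists past the interaction. Members and lists were chosen with earlier results of these data known, and the terminal complement and SR factor lists after their values were seen. Alternatives changed the arrays fitted, the variance model, the normalization, the SD minimum, the filters and the replicate block, and left out each array in turn. Array values are from mice numbered within groups, and nothing ties a number to a shared litter or day.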

Additional observations from a re-analysis of the deposited data

Results flagged for a closer look

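The interaction itself is a difference between 2 genotypes under the same contrast, and it passed its test for 31 probe sets of the named genes. The positive values were 4.60 (Cyp4a12a), 4.57 (Slco1a1), 3.20 (Ptbp1), 2.12 (Nudt7), 1.999 (Bmf), 1.55 (Alas2), 1.48 (C8a), 1.40 (Keg1), 1.30 (Cyp2d9), 1.28 (Lama3), 1.22 (C6), 1.19 (C8b), 1.12 (Hspa1a), 0.94 (C9), 0.33 (Lst1) and 0.20 (C1ra). The negative values were -3.71 and -3.21 (Slc22a26), -1.77 (Cyp2c29), -1.58 (Mcl1), -1.21 (Prelid2), -1.14 (Slco1a4), -1.12 (Cirbp), -0.97 (Zc3h6), -0.91 (Srsf5), -0.90 (Mmp14), -0.89 (Inhba), -0.88 (Zfp292), -0.79 (Nt5e), -0.67 (Rasgrp2) and -0.40 (Dcn).

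Within the groups of 4 wild-type arrays, 6 of 152 groups tested had 1 array far from the other 3, and chance flags about 1 in 20 groups, or 7.6 of these. Groups of 3 CAR-deficient arrays were not tested. Among wild-type ethanol arrays, Nudt7 was 13.14 on replicate 5 (12.80 to 12.81 on the others), C8a was 12.09 on replicate 4 (11.86 to 11.89), and Srsf5 was 10.11 on replicate 1 (10.60 to 10.62). Alas1, which starts heme synthesis in liver, was 11.59 on wild-type ethanol replicate 3 (9.87 to 10.07) and 10.49 on wild-type control replicate 1 (8.85 to 9.13). Gadd45b was 9.28 on wild-type ethanol replicate 3 (7.52 to 7.78).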

How the results depend on the processing

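The interaction count of 119 was 356 with quantile normalization within each genotype (all 119 shared), 45 with the variance apart, 380 with each probe set scaled to unit residual variance (90 shared), and 64 with the replicate block. Without 1 array it ran between 66 and 242. The ethanol count in CAR-deficient mice (68) was 42 without moderation of the variances, 41 with quantile normalization, 8 with the block and 6 to 46 without 1 array. That in wild-type mice (1003) was 1653 with quantile normalization and 607 to 930 without 1 array. The causes were not tested. Same-numbered CAR-deficient ethanol and control arrays deviated together (residual correlations 0.428, 0.284 and 0.355), but wild-type replicates 1, 3 and 4 gave 0.303, 0.338 and -0.084, so the numbers were not taken as pairs. With the block, which shared 54 of its 64 calls with the 119, 17 of the 31 named probe sets passed. Those that did not, with adjusted p from 0.0516 to 0.179, were Zc3h6, Cirbp, C8b, Alas2, Prelid2, C9, Zfp292, Slco1a4, Rasgrp2, C1ra, Nudt7, Dcn, Lst1 and Inhba.

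None of the 31 named probe sets past the interaction changed sign in any alternative, while 15 of the 45 that did not pass did so. With unit residual variance, in units of residual SD, reversed values were -1.24 for Ccar1, 3.46 for Ddx46, -1.36 for Slc2a1, 0.21 for Aldh1a7, 3.02 for Cyp3a13, 2.15 for Abcc3, 0.29 for Sult1d1, 4.06 for Ces2a, 0.68 for Fmo5 and 1.77 for Cyp2c38, and Slc2a1 gave -0.061 with the block. Without 1 array, the differences ran from -0.61 to 0.017 for Gstm2, -0.12 to 0.29 for Gstt1, -0.41 to 0.25 for Aldh1a7, -0.41 to 0.28 for Cyp3a13, -0.30 to 0.71 for Cyp2c55, -0.56 to 0.021 for Fmo5, -0.0023 to 0.10 for Ccar1, -0.38 to 0.76 for Gstm3, -0.48 to 0.061 for Abcc3, -0.092 to 0.16 for Slc2a1 and -1.02 to 0.28 for Cyp2b9. With 3 or 4 mice per group, small differences are not measured precisely, and a gene with the same sign in both genotypes cannot be told apart from unequal scaling.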

Other observations

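Several gene groups gave no interaction past the threshold although most of their genes had the same sign, and their values are given as descriptions beside the median of -0.037 over 3670 member genes. Of 20 members among genes of cholesterol synthesis and uptake, 17 had a positive sign, with a median interaction of 0.598 and median ethanol differences of -0.66 in CAR-deficient mice and -0.14 in wild-type mice. None of the 20 passed the adjusted test by limma in either genotype. All 11 members among interferon-stimulated genes had a positive sign, with a median interaction of 0.507, and 1 passed the test of ethanol against control as lower in wild-type mice. Of 20 acute phase genes, 16 had a negative sign, with a median of -0.21.

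Of 8 members among Kupffer cell markers, the genes of the resident liver macrophage, 7 passed the test of ethanol against control as lower in wild-type mice. In CAR-deficient mice 0 passed. Over all probe sets, 5.55% were called in wild-type mice and 0.344% in CAR-deficient mice. Of 3670 member genes, which also passed the SD minimum, 394 passed as lower in wild-type mice and 21 in CAR-deficient mice. The median ethanol differences of the 8 markers were -0.41 in CAR-deficient mice and -0.25 in wild-type mice, so the 0 calls do not mean that the markers did not fall. None of the 8 passed the interaction. Both member metallothionein genes, which bind zinc and copper, had ethanol differences above 0, with medians of 2.37 in CAR-deficient mice and 1.59 in wild-type mice. Of these, 1 passed the test of ethanol against control in wild-type mice.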
